A study of Mus musculus with 6 samples.

Results

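The genes described here are 10 regulators of mitochondrial biogenesis and of mitochondrial fusion and fission: Ppargc1a, Ppargc1b, Nrf1, Tfam, Tfb2m, Polrmt, Mfn1, Mfn2, Opa1 and Dnm1l. They were found by their symbols in a deposited table of 55471 genes, each in 1 row, and all 10 passed the filter on low counts that kept 15218 genes. Poly(A) RNA was sequenced from left atria of C57BL/6J males that had surgery at 10 weeks of age and were sampled 2 weeks later. Mice of the MR group (mitral regurgitation) had a hole made in the anterior leaflet of the mitral valve under echocardiography, while in Sham mice the needle pierced the cardiac apex and spared the leaflet. There were 3 biological replicates per group, and the labels name no transgene, drug or pooling. Whole left atrial tissue was used, so cardiomyocytes and all other cells of the wall were measured together. The 6 libraries held between 14124407 and 20039490 counts over genes.

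Mitochondria are built from proteins of the nuclear genome and a few encoded by their own DNA (mtDNA). The coactivators PGC-1 alpha (Ppargc1a) and PGC-1 beta (Ppargc1b) dock on transcription factors such as nuclear respiratory factor 1 (Nrf1) and the estrogen-related receptors, and these turn on nuclear genes for respiration and for mtDNA upkeep. Inside the organelle, TFAM packs mtDNA and bends its promoters, TFB2M opens them, and the RNA polymerase POLRMT transcribes them. The mitofusins MFN1 and MFN2 fuse outer membranes, OPA1 fuses inner membranes and shapes cristae, and the dynamin DRP1 (Dnm1l) constricts and divides the organelle. Heart muscle is among the tissues richest in mitochondria, and its cells depend on these genes for the supply of ATP.

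The 4 genes that fell in MR are shown first by the DNA just upstream of their annotated starts, because 3 of them carry the letters of a site for a factor of the same pathway there. The sequences are the 120 bases before the start from RefSeq promoter windows of build GRCm38.p6, written 5′ to 3′ on the gene's strand, with the matched motif in capitals. The Mfn1 stretch is chr3:32529362-32529481 on the plus strand and that of Tfam is chr10:71238045-71238164 on the minus strand, and both capitals mark the GABPA (nuclear respiratory factor 2) motif. The Opa1 stretch is chr16:29579214-29579333 on the plus strand, with the NRF1 motif in capitals. The Tfb2m stretch is chr1:179546277-179546396 on the minus strand and matched none of the motifs searched.
Mfn1: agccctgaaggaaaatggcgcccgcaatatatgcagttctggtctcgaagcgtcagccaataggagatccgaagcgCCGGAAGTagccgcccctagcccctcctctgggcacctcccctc
Tfam: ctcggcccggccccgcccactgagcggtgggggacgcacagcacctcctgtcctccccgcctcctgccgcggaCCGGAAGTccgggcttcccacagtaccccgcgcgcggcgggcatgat
Opa1: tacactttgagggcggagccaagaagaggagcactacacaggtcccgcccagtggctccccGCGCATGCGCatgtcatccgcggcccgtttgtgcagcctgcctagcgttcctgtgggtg
Tfb2m: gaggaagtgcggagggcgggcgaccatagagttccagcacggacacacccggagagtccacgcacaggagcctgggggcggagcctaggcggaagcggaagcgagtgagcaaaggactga

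The motif began 44 bases before the start in Mfn1, 47 bases before it in Tfam and 59 bases before it in Opa1. The search covered whole windows of 300 bases (250 before and 50 after the start) on both strands, and 9 of the 10 genes had 13 windows among the 32851 of the mouse table, with Ppargc1b not matched. The GABPA letters CCGGAAGT stood in 3.89% of all windows and in those of Mfn1 and Tfam. The palindromic NRF1 motif, with any base allowed at 1 central position, stood in 4.6% of all windows and in those of Opa1 and Polrmt. The estrogen-related receptor letters TCAAGGTCA (0.423% of all windows) and the CREB letters TGACGTCA (1.79%) stood in 0 of the 13 windows. These matches describe letters and say nothing of binding in these atria.

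Levels of different genes can be compared in TPM, the authors' deposited values scaled by gene length and library. Mfn2 was the most abundant of the 10 in Sham at 263 ± 33 TPM (SD, n = 3), above 98.2% of tested genes in mean TPM over all libraries. It was followed by Mfn1 (67.4 TPM), Dnm1l (61), Opa1 (42.9), Ppargc1a (35.5), Tfb2m (25.6), Tfam (20.9), Polrmt (10.9), Ppargc1b (6.14) and Nrf1 (2.59 TPM). In Sham each gene lay above the next in every library. In MR the order by mean TPM was the same except that Dnm1l (64.1) stood above Mfn1 (60.5) and Ppargc1a (46.2) above Opa1 (43.3), and the ranges of Dnm1l, Mfn1, Ppargc1a and Opa1 overlapped with those of their neighbours. The effectors of fusion and fission were thus measured at higher levels than the regulators of biogenesis in Sham. Raw counts of the 10 genes ran from 166 for Ppargc1b in Sham library 3 to 12319 for Mfn2 in MR library 3.

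Of the fusion genes, Mfn1 and Opa1 fell in MR and Mfn2 did not pass the test. The levels that follow are CPM, counts scaled to a common library total corrected by TMM (a factor that centres most genes on no change), and the test is edgeR's quasi-likelihood test with Benjamini-Hochberg adjustment over all tested genes. Mfn1 (ENSMUSG00000027668), which tethers and fuses outer membranes, was at 202, 206 and 198 CPM in Sham libraries 1 to 3 and at 159, 119 and 155 CPM in MR libraries 1 to 3. All 3 MR values lay below all 3 Sham values, and MR library 2 was the lowest. The log2 fold change of Mfn1 was -0.49 ± 0.12 (SE; edgeR adjusted p = 0.0181), or 0.713 times the Sham level.

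Opa1 (ENSMUSG00000038084), the inner membrane GTPase, was at 165, 170 and 162 CPM in Sham and 132, 119 and 147 CPM in MR. The groups did not overlap, and MR library 2 was again the lowest. Its log2 fold change was -0.32 ± 0.10 (edgeR adjusted p = 0.0452). Mfn2 (ENSMUSG00000029020), which also links mitochondria to the sarcoplasmic reticulum, was at 615, 655 and 735 CPM in Sham and 676, 562 and 614 CPM in MR. The groups overlapped, with MR library 1 above Sham libraries 1 and 2, and the log2 fold change was -0.11 ± 0.12 (edgeR adjusted p = 0.514).

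The fission gene Dnm1l (ENSMUSG00000022789), which encodes DRP1, was at 155, 161 and 152 CPM in Sham and 134, 118 and 138 CPM in MR. Every MR value lay below every Sham value, but its log2 fold change of -0.26 ± 0.10 did not pass (edgeR adjusted p = 0.0727). It was the gene just outside the threshold, as Opa1 was the one just inside. An antisense gene annotated on the opposite strand shares 4.7% of the exon bases of Dnm1l, and the other 9 genes share none with an annotated gene.

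Among the genes that act on mtDNA, Tfam and Tfb2m fell and Polrmt did not pass. Tfam (ENSMUSG00000003923), the mtDNA packaging and transcription factor, was at 48.3, 44.4 and 44 CPM in Sham and 34.5, 27.4 and 37.6 CPM in MR. The groups did not overlap, MR library 2 was the lowest, and the log2 fold change was -0.46 ± 0.12 (edgeR adjusted p = 0.022). Tfb2m (ENSMUSG00000026492), the promoter-melting factor, was at 35.7, 36.9 and 33 CPM in Sham and 24, 30.7 and 28.3 CPM in MR. Here too the groups did not overlap, but MR library 1 was the lowest and MR library 2 the highest of its group. The log2 fold change of Tfb2m was -0.35 ± 0.10 (edgeR adjusted p = 0.0393).

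Polrmt (ENSMUSG00000020329), the polymerase itself, was at 23.8, 25 and 26.2 CPM in Sham and 24.7, 20.9 and 19.4 CPM in MR. MR library 1 lay inside the Sham range and the other two below it, and the log2 fold change was -0.21 ± 0.11 (edgeR adjusted p = 0.203).

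None of the upstream regulators Ppargc1a, Ppargc1b and Nrf1 passed the test. Ppargc1a (ENSMUSG00000029167) was at 110, 118 and 117 CPM in Sham and 127, 87.5 and 143 CPM in MR. The Sham values were close together, whereas MR libraries 1 and 3 lay above them and MR library 2 below. The log2 fold change of Ppargc1a was 0.05 ± 0.16 (edgeR adjusted p = 0.833), and it was -0.10 without MR library 3 and -0.006 without MR library 1.

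Ppargc1b (ENSMUSG00000033871) was at 11.4, 12.6 and 12 CPM in Sham and 13.9, 13.8 and 16.1 CPM in MR. All MR values lay above all Sham values, and the log2 fold change of 0.29 ± 0.12 missed the threshold (edgeR adjusted p = 0.112). Nrf1 (ENSMUSG00000058440) was at 13.3, 12.2 and 13.6 CPM in Sham and 14.1, 14.5 and 13.1 CPM in MR, overlapping groups with a log2 fold change of 0.09 ± 0.11 (edgeR adjusted p = 0.606).

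**Figure D1:**
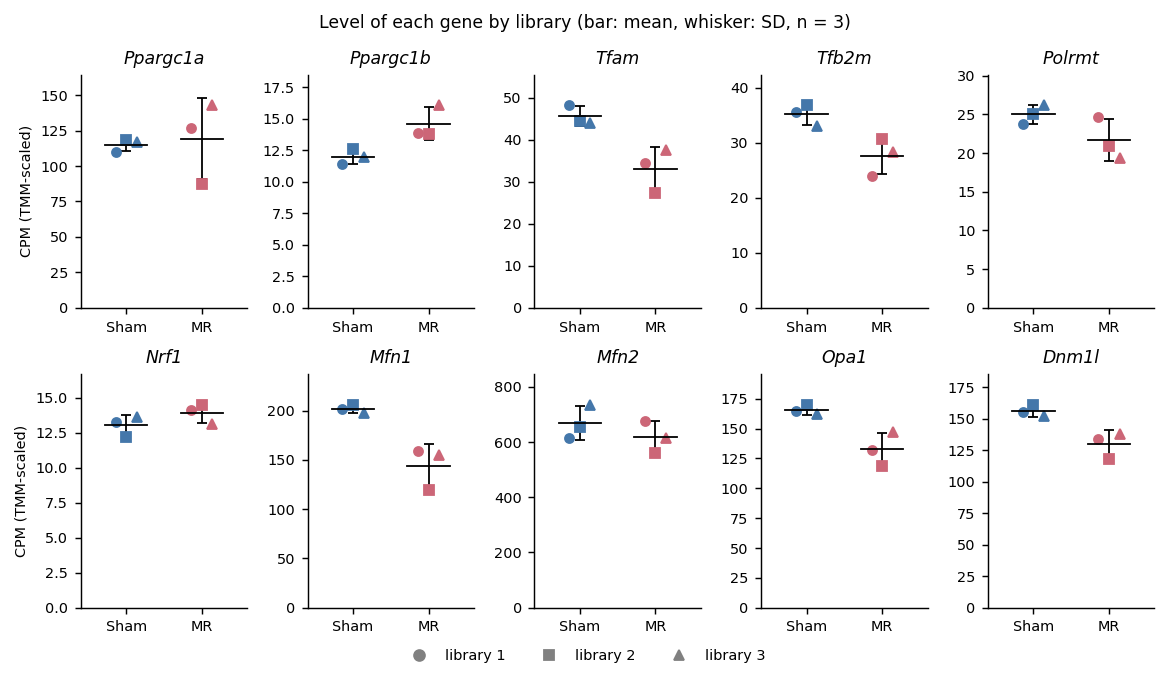
Level of each of the 10 genes (vertical axis, TMM-scaled CPM from 0) in the 3 Sham and 3 MR libraries, with the mean as a bar, the SD as a whisker and the library number as the symbol. Mfn1, Tfam, Tfb2m, Opa1 and Dnm1l have all MR points below all Sham points, Ppargc1b has them above, and Ppargc1a spreads from 87.5 to 143 CPM in MR.

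In all, 4 of the 10 genes fell and 0 rose, with a median log2 fold change of -0.24, while DESeq2 called 3 lower and 0 higher. Over all tested genes 10.6% fell and 11.8% rose with edgeR, and the median was 0.00. DESeq2 called 10.1% of them lower and 11% higher. The MR values lay wholly below the Sham values for 5 of the 10 genes, against 21.2% of all tested genes, and wholly above for 1, against 20.6%. In MR library 2 stood the lowest MR value of 7 of the 10 genes.

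These falls are relative to the bulk of the transcriptome. Under scaling by library totals alone, which moves the median of all tested genes to 0.21, 0 of the 10 genes fell and 1 rose (background 3.77% and 26.4%). The gene that rose there was Ppargc1b, with a log2 fold change of 0.49 ± 0.12 (edgeR adjusted p = 0.013). Mfn1 (-0.29), Tfam (-0.25), Tfb2m (-0.14) and Opa1 (-0.12) kept negative fold changes on that scale but no longer passed (edgeR adjusted p = 0.0743, 0.103, 0.367 and 0.373), Polrmt came to 0.00 and Mfn2 turned to 0.09. In the deposited TPM, where the median ratio of MR to Sham over tested genes was 0.34 on the log2 scale, the same ratio was -0.16 for Mfn1, -0.13 for Tfam, -0.01 for Tfb2m and 0.01 for Opa1. On the TPM scale the MR values lay wholly below Sham for 0 of the 10 genes (3.25% of tested genes) and wholly above for Ppargc1b and Nrf1 (52.2% of tested genes).

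**Figure D2:**
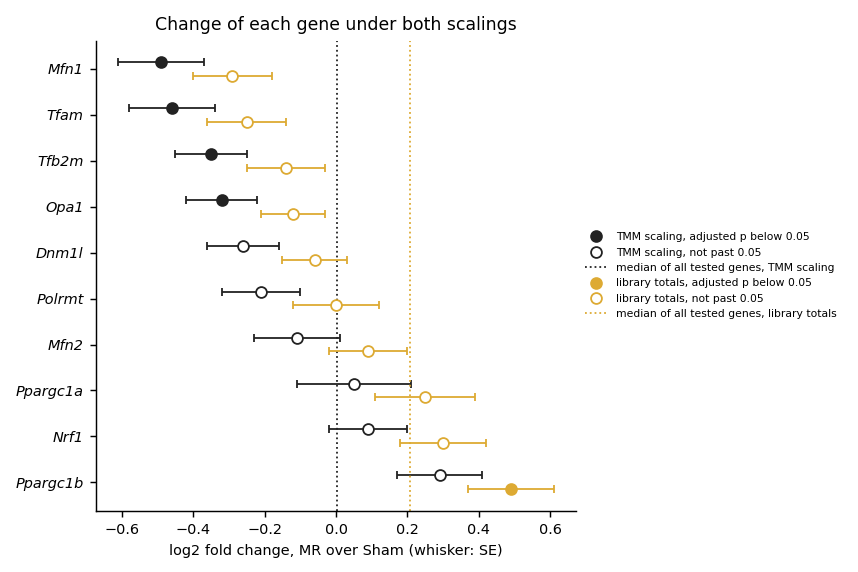
Log2 fold change of MR over Sham (horizontal axis, whiskers are SE) for the 10 genes under TMM scaling and under library totals, with filled symbols for an adjusted p below 0.05 and dotted lines at the median of all tested genes. Mfn1, Tfam, Tfb2m and Opa1 are filled under TMM scaling and Ppargc1b under library totals, and each gene shifts to the right along with the median of all genes.

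Leaving out libraries also ended calls. Of all tested genes 10.6% fell with all 6 libraries. With 1 left out, 4.77% (Sham 1), 5.77% (Sham 2), 6.64% (Sham 3), 11% (MR 1), 5.52% (MR 2) and 7.15% (MR 3) fell. The call of Mfn1 ended without Sham library 1 or Sham library 2 (edgeR adjusted p = 0.0615 and 0.0607). That of Tfam ended without Sham 1, Sham 2 or MR 2 (0.0831, 0.0555 and 0.0591). Tfb2m missed the threshold in every left-out fit but the one without MR 2 (edgeR adjusted p between 0.0588 and 0.126), and with DESeq2 (0.0507). Opa1 missed it in every left-out fit but the one without MR 3 (edgeR adjusted p between 0.0788 and 0.127), and also with mtDNA-encoded and haemoglobin genes left out (0.055). The log2 fold changes of the 4 genes stayed negative in all 17 alternatives.

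By the authors' deposited table, 6 of the 10 genes had an adjusted p-value below 0.05, all lower in MR, beside 14.6% of its genes lower and 12.0% higher. The authors' deposited table gives log2 fold changes of -0.56 for Mfn1, -0.51 for Tfam, -0.4 for Tfb2m, -0.32 for Opa1, -0.27 for Polrmt and -0.25 for Dnm1l. The authors' adjusted p-value of Polrmt rounds to 0.05, so that it lies below the threshold only marginally. For Mfn2 the authors' deposited table has -0.22 with an adjusted p-value of 0.0705.

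Ratios between genes of the same library carry no scaling factor, and 4 were compared with two-sided exact permutation tests. With 3 libraries against 3 the smallest p such a test allows is 0.1. The Mfn1 to Mfn2 ratio in TPM was 0.279, 0.267 and 0.229 in Sham and 0.199, 0.179 and 0.214 in MR. The ratios of these paralogues did not overlap between groups (exact permutation p = 0.1, 0.2 after adjustment over the 4 ratios). The Ppargc1b to Ppargc1a ratio was 0.172, 0.177 and 0.17 in Sham and 0.181, 0.261 and 0.187 in MR, again without overlap (exact permutation p = 0.1, 0.2 adjusted), and MR library 2 stood far above the rest.

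The ratio of Opa1 to Dnm1l, fusion against fission, averaged 0.703 ± 0.00549 in Sham against 0.675 ± 0.0247 in MR (SD, n = 3) and overlapped (exact permutation p = 0.2, 0.267 adjusted). That of Tfam to Polrmt was 1.93 ± 0.192 in Sham and 1.64 ± 0.361 in MR, with MR library 3 inside the Sham range (exact permutation p = 0.3).

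**Figure D3:**
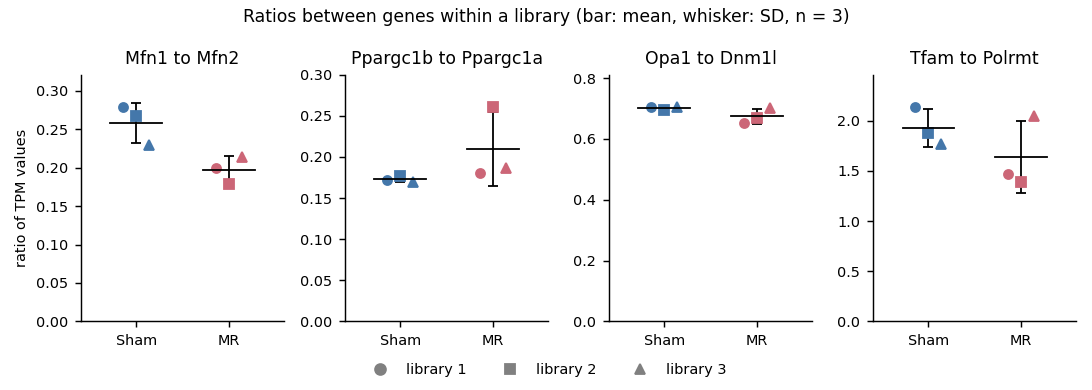
Ratio of the TPM values of a pair of genes within each library (vertical axis, no unit, from 0) in 3 Sham and 3 MR libraries, with the mean as a bar and the SD as a whisker. The Mfn1 to Mfn2 ratio is 0.229 to 0.279 in Sham and 0.179 to 0.214 in MR, while Opa1 to Dnm1l and Tfam to Polrmt overlap.

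Marker genes of several cell types also differed between the groups. All 10 cardiomyocyte markers were detected. The atrial light chain gene Myl7 was the most abundant of them at a mean of 26280 TPM over all libraries, and Myl4 was at 2832 TPM. Of the 10 markers 6 fell and 0 rose, with a median log2 fold change of -0.54. Their summed level was 48025 to 60094 TPM in Sham and 42288 to 56300 TPM in MR. Among markers of other cells, 3 of 7 fibroblast genes rose (summed 963 to 1075 TPM in Sham and 1454 to 1753 in MR). Pdgfra (-0.22) and Lum (-0.06) of that list had negative log2 fold changes and did not pass. A rise was called for 6 of 7 macrophage genes (216 to 235 and 385 to 516 TPM), 3 of 6 endothelial genes (284 to 323 and 432 to 524 TPM) and 5 of 5 mesothelial genes (77.2 to 147 and 353 to 586 TPM). Beside these counts, 11.8% of all tested genes rose and 10.6% fell. In TPM, 52.2% of all tested genes had every MR value above every Sham value, with a median log2 ratio of 0.34. Adipocyte markers summed to 433 to 473 TPM in Sham and to 762, 815 and 480 TPM in MR libraries 1 to 3. Of the 6 tested 4 rose and 0 fell. Lpl, the most abundant of those tested at a mean of 399 TPM over all libraries, had a log2 fold change of -0.27 and did not pass. The fat cell gene Adipoq had 6, 0 and 28 counts in Sham and 672, 1046 and 9 in MR. Of the 4 brown adipocyte markers tested 0 rose and 0 fell, and the list summed to 1145 to 1438 TPM in Sham and 1276 to 1547 TPM in MR. Its member Cox8b had 2845 to 4748 counts a library, and the defining gene Ucp1 had 1 count in all 6 libraries together. Of the other marker genes 2 of 6 for smooth muscle and pericytes rose and 2 fell, 4 of 5 for erythrocytes rose, and both tested lymphocyte genes rose. In such bulk samples fewer cardiomyocytes and less RNA per cardiomyocyte cannot be told apart, and the part of these cells in the results was not tested.

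Set against the mean log2 CPM of the 10 cardiomyocyte markers, the 4 genes that fell no longer stood apart by group. That mean was 12.01, 11.99 and 12.13 in Sham and 11.7, 11.34 and 11.54 in MR, a difference of -0.52, with MR library 2 the lowest. On this relative log2 scale the MR minus Sham difference was 0.02 for Mfn1, 0.05 for Tfam, 0.16 for Tfb2m and 0.19 for Opa1, each with overlapping groups. The other 6 genes had all MR values above all Sham values, a pattern shared by 63.9% of tested genes, and 0 of the 10 genes lay wholly below, against 1.63% of tested genes. Over all tested genes the median relative difference was 0.52. The relative differences were 0.25 for Dnm1l, 0.3 for Polrmt, 0.4 for Mfn2, 0.54 for Ppargc1a, 0.61 for Nrf1 and 0.8 for Ppargc1b.

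**Figure D4:**
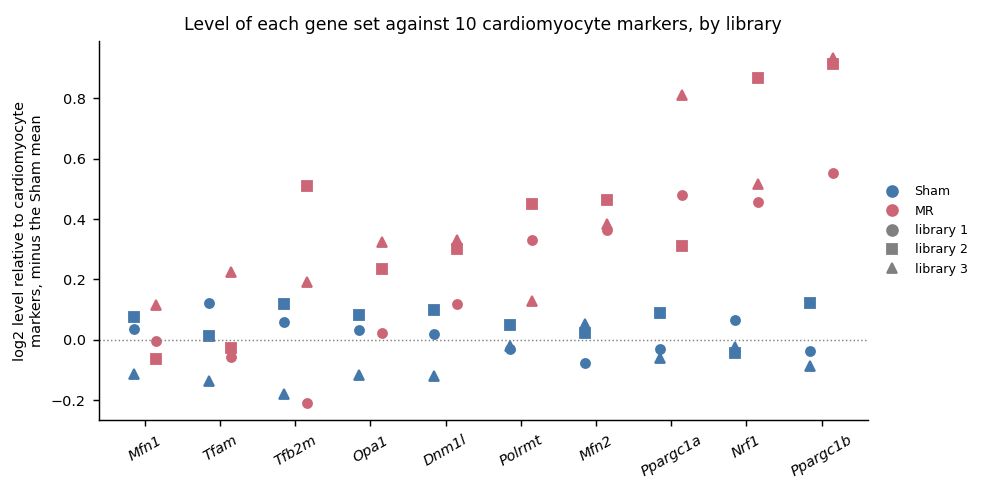
Log2 level of each gene minus the mean log2 level of 10 cardiomyocyte markers, shown with the Sham mean set to 0 (vertical axis, log2 units), for 3 Sham and 3 MR libraries marked by colour and symbol. Mfn1, Tfam, Tfb2m and Opa1 overlap between groups, and the MR points of the other 6 genes lie above the Sham points.

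Other transcriptional regulators of biogenesis moved in both directions. Of 17 tested, 3 fell and 2 rose, with a median log2 fold change of -0.04, against 10.6% and 11.8% of all tested genes. Perm1, a muscle-specific regulator induced by PGC-1, went from 215 ± 13.1 to 150 ± 23.5 CPM (SD, n = 3), a change of -0.52 ± 0.12 on the log2 scale with an edgeR adjusted p of 0.0163. Esrra, the estrogen-related receptor alpha, fell by 0.39 and Gabpa, the DNA-binding subunit whose motif stands in the Mfn1 and Tfam sequences above, by 0.32 on the log2 scale. Gabpb2, a partner subunit of the same factor family, rose by 0.47 and Pprc1, the third PGC-1 family member, by 0.41. Each of these 5 calls ended in at least 2 of the 6 left-out fits, and under library totals the list had 5 higher and 0 lower, beside 26.4% and 3.77% of all tested genes.

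Of 15 tested kinases and inducers upstream of PGC-1, 6 fell and 1 rose, against 10.6% and 11.8% of all tested genes. Their median log2 change was -0.18. The number that fell was 5 without MR 1, 3 without Sham 1, 1 without Sham 2, and 2 without Sham 3, MR 2 or MR 3. In these fits between 4.77% (without Sham 1) and 11% (without MR 1) of all tested genes fell. Under library totals 2 were lower and 3 higher, beside 3.77% and 26.4% of all tested genes. The AMPK subunit genes Prkab1 (-0.54 ± 0.10, edgeR adjusted p = 0.00745) and Prkaa2 (-0.53 ± 0.12, edgeR adjusted p = 0.0126) fell, the latter not without Sham library 2 (0.0535). Camkk2, a kinase that activates AMPK, rose from 21 ± 1.23 to 32.6 ± 5.79 CPM (0.63 ± 0.13, edgeR adjusted p = 0.00948), and Prkab1 and Camkk2 passed in all 6 left-out fits and under library totals.

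Of 13 fission genes tested besides Dnm1l, 6 fell and 2 rose, with a median of -0.28, against 10.6% and 11.8% of all tested genes. Without MR 1 again 6 fell (11% of all tested genes), and without any other single library 4 fell (between 4.77% and 7.15%). Under library totals 3 were lower and 2 higher, beside 3.77% and 26.4% of all tested genes. Mtfp1, an inner membrane protein that promotes fission, went from 61.9 ± 0.343 to 33.1 ± 7.12 CPM, which is -0.90 ± 0.14 in log2 units (edgeR adjusted p = 0.00317). The DRP1 receptor gene Mief2 fell from 31 ± 0.689 to 19.9 ± 1.11 CPM (-0.64 ± 0.09, edgeR adjusted p = 0.00236). Inf2, a formin that builds actin at fission sites and elsewhere in the cell, rose from 15.1 ± 2.01 to 29.1 ± 1.91 CPM (0.95 ± 0.12, edgeR adjusted p = 0.00155). The calls of Mtfp1, Mief2 and Inf2 held in all 6 left-out fits and under library totals.

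Of 13 other fusion and OPA1 processing genes, 5 fell and 0 rose, against 10.6% and 11.8% of all tested genes, and the median log2 change was -0.31. The prohibitin gene Phb1 (-0.41 ± 0.09, edgeR adjusted p = 0.0105), Opa3 (-0.48 ± 0.11, edgeR adjusted p = 0.0124) and the inner membrane protease gene Parl (-0.39 ± 0.09, edgeR adjusted p = 0.0174) fell. Under library totals 0 of the list passed, and without Sham 1 or MR 2 the number that fell was 2. Over all tested genes 3.77% were lower and 26.4% higher under library totals, and 4.77% and 5.52% fell without Sham 1 and without MR 2. The list of MICOS and cristae genes holds subunits of MICOS, the complex that shapes cristae at the inner membrane, and genes of its outer membrane partners. Of its 11 genes 7 fell and 0 rose, with a median of -0.49, beside the same 10.6% and 11.8% of all tested genes. Without Sham 1 the number that fell was 4 (4.77% of all tested genes). Those that fell were the MICOS genes Immt, Chchd3, Apoo, Apool and Micos10 and the partner genes Samm50 and Mtx2. Immt, the MICOS core gene encoding mitofilin, was at 350, 347 and 350 CPM in Sham and 252, 208 and 254 CPM in MR libraries 1 to 3, and the groups did not overlap (-0.55 ± 0.11, edgeR adjusted p = 0.00758). Chchd3 (-0.58 ± 0.11) and Apoo (-0.76 ± 0.11) fell too, and Immt, Chchd3 and Apoo were the 3 that also passed under library totals.

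Protein import genes fell for 9 of 22 and rose for 0, against 10.6% and 11.8% of all tested genes, with a median log2 fold change of -0.32. Among those that fell were the channel gene Timm23 (-0.62 ± 0.14, edgeR adjusted p = 0.0126), Tomm40l (-0.48 ± 0.09) and Timm17a (-0.51 ± 0.12). With 1 library left out between 2 (without Sham 1, 4.77% of all tested genes) and 8 (without MR 1, 11%) import genes fell, and without MR 2 the number was 5 (5.52%). Under library totals 2 import genes, Timm23 and Tomm40l, were still called lower, beside 3.77% of all tested genes. Of 15 mitophagy genes 1 fell, where 10.6% of all tested genes did. That gene was Pink1, the kinase that marks damaged mitochondria (-0.53 ± 0.11, edgeR adjusted p = 0.0121). It missed the threshold when Sham library 1 was left out (0.0507) and under library totals (0.0539). The median of the mitophagy list was -0.05. Over the lists of other pathway genes, those of mtDNA included, 17 of 49 calls held in every fit with 1 library left out and 19 held under library totals. Over all tested genes the number called went from 3408 with all libraries to 1583 without Sham 1. Under library totals the number called lower went from 1615 to 574. The share of all calls that held in every such fit was not computed.

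**Figure D5:**
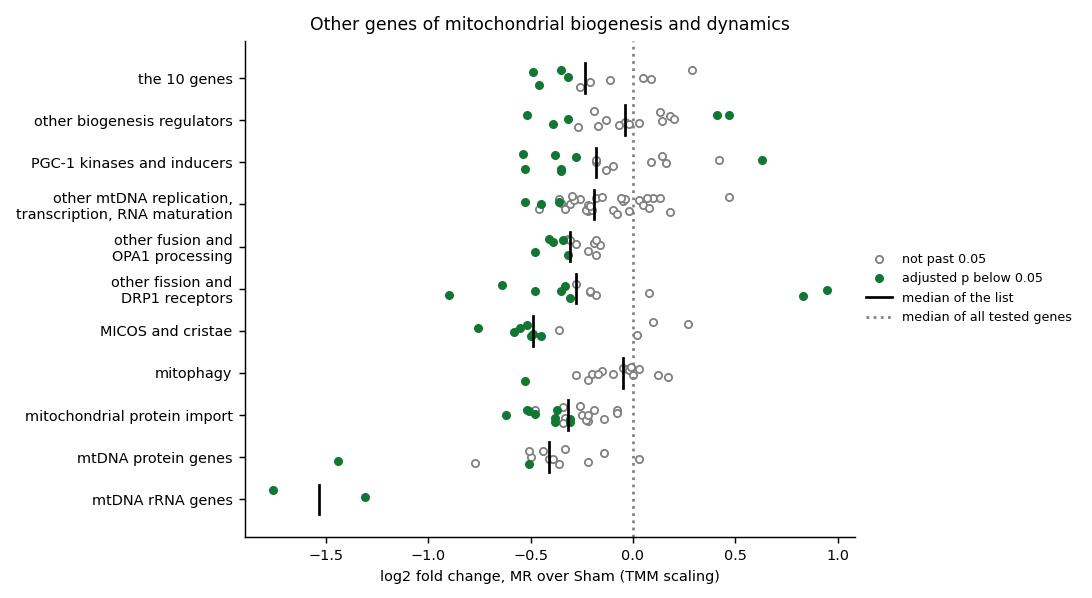
Log2 fold change of MR over Sham (horizontal axis, TMM scaling) of every tested gene in 11 lists of mitochondrial biogenesis and dynamics, filled where the adjusted p was below 0.05, with the median of each list as a bar and that of all tested genes as a dotted line. The median is -0.24 for the 10 genes, -0.49 for MICOS and cristae and -0.05 for mitophagy, and Inf2 and Mtfp1 are the outermost fission genes.

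Other genes of mtDNA replication, transcription and RNA maturation fell for 3 of 32 and rose for 0, with a median log2 fold change of -0.19, where 10.6% of all tested genes fell. With 1 library left out between 1 (without Sham 1 or MR 2) and 6 (without MR 1) fell, and under library totals 1 was lower and 1 higher. The shares of all tested genes that fell were 4.77% without Sham 1, 5.52% without MR 2 and 11% without MR 1. Under library totals 3.77% of all tested genes were lower and 26.4% higher. Lrpprc, which stabilizes mitochondrial messenger RNA, fell (-0.53 ± 0.10, edgeR adjusted p = 0.00769), as did Mterf2 (-0.45 ± 0.12) and Hsd17b10 (-0.36 ± 0.10), a subunit of the RNase P that frees mitochondrial tRNAs. The calls of Mterf2 and Hsd17b10 ended in 3 of the 6 left-out fits each and under library totals.

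The transcripts made by POLRMT from mtDNA were compared as well. Whether their levels follow those of Tfam, Tfb2m and Polrmt was not tested. Of the 13 protein genes of mtDNA 2 fell and 0 rose, the median being -0.41 in log2 units, while DESeq2 called 8 of the 13 lower and 0 higher. Over all tested genes 10.6% fell and 11.8% rose, and DESeq2 called 10.1% lower and 11% higher. Without Sham 1 or Sham 2 edgeR called 0 of the 13, where 4.77% and 5.77% of all tested genes fell. mt-Co3, a subunit of cytochrome oxidase, went from 2678 ± 441 to 1884 ± 223 CPM (-0.51 ± 0.15, edgeR adjusted p = 0.0407) and missed the threshold in 5 of the 6 left-out fits. mt-Atp8 was at 97.6, 107 and 29.9 CPM in Sham and at 28.6, 27.7 and 30.5 CPM in MR, so that Sham library 3 lay within the MR range (-1.44 ± 0.36, edgeR adjusted p = 0.02). mt-Atp8 overlaps mt-Atp6 on mtDNA, and its value is uncertain.

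Together the 13 genes took 21.1, 21.8 and 19.1% of all counts in Sham and 17.7, 17.9 and 20.2% in MR, overlapping shares with exact permutation p = 0.2 (0.267 adjusted over 4 library measures). The share of the mtDNA rRNA genes averaged 1.26 ± 0.459% in Sham against 0.544 ± 0.0939% in MR (SD, n = 3; exact permutation p = 0.1, 0.2 adjusted). Both rRNA genes fell, with log2 fold changes of -1.76 ± 0.25 for mt-Rnr1 (edgeR adjusted p = 0.00248) and -1.31 ± 0.26 for mt-Rnr2 (edgeR adjusted p = 0.00875), in all 6 left-out fits and under library totals too. Ribosomal RNA is meant to be removed by poly(A) selection, and the part of that selection in the rRNA share was not tested.

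The genes whose log2 CPM over the 6 libraries ran closest to that of Ppargc1a, among 9171 protein-coding genes with a mean of at least 10 CPM, were Ccdc77 (Pearson r = 0.962), Gtpbp8 (0.959), Nsmaf (0.934), Abcc4 (0.933) and Cdkl2 (0.921). These correlations describe 6 libraries that share their scaling factors. They are the highest among 9171 genes, and how high r would run by chance among so many was not computed.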

How the data were processed

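The deposited counts per gene and library, per the file headers, were treated as raw, being whole numbers whose totals differ between libraries. The authors' TPM columns, per the file headers, sum to 1000000 in each library and were used for levels between genes and ratios. The authors also deposited a log2 fold change, a p-value and an adjusted p-value per gene, and these are quoted only as theirs. The submitters' processing notes name HISAT2 2.1.0 with build GRCm39, featureCounts (Subread 2.0.1), DESeq2, fastp, SAMtools, FastQC and MultiQC, without their settings. Not given in the sources used here are the strand setting and the annotation release. Per the labels' protocols, the mRNA kit marked strand and reads were paired. All sample columns were mapped by name.

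Counts were tested with edgeR 4.0.16 (R 4.3.3), TMM scaling, filterByExpr and a 2-group design over 15218 genes, adjusted by Benjamini-Hochberg at 0.05. SEs were derived from the fold change and its F statistic. The steps were tested on simulated data with planted changes. At an adjusted p below 0.05 they recovered 38% of 1.5-fold changes, 84% of 2-fold changes and 100% of 4-fold and 8-fold changes. A gene that did not pass is therefore not shown to be unchanged. The 10 genes, the lists, the motifs and the alternatives were chosen with earlier results of these data known, and the motifs after the values were seen. Named genes were all 10, and per list up to 3 with the smallest p among those that passed. Others named beside small counts were chosen after their values were seen. List genes were matched by symbol, and those of mtDNA by gene identifier. The list member Fastkd4 was not matched. Reference sequences are of build GRCm38.p6 and were looked up by symbol.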

Additional observations from a re-analysis of the deposited data

How the results depend on the processing

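Under library totals without TMM factors 4025 of all tested genes were higher and 574 lower in MR, and of the 10 genes 1 was higher and 0 lower. After correction for GC and transcript length, 2713 genes were lower and 1516 higher, a share of higher calls of 35.8% against 52.6%, and 5 of the 10 genes fell, Polrmt being added (adjusted p = 0.0313). When MR library 3 alone stood for MR, on the assumption that it varies like the other group, 563 genes were higher and 413 lower, and 0 of the 10 genes fell. With 1 library left out, between 838 and 1736 genes were higher, between 745 and 1717 lower, and between 0 (without Sham 1 or Sham 2) and 3 (without MR 3) of the 10 genes fell. Signs that turned were those of genes that did not pass: Mfn2 came to 0.09 under library totals, Nrf1 to -0.0025 with MR library 3 alone, and Ppargc1a to between -0.10 and 0.24 with 1 library left out. Same-numbered libraries deviated from their group means with correlations of -0.00981, -0.0101 and -0.186, so no pairing by number was seen. Deviations from means of 3 libraries cannot exclude one. With the replicate number as a block, 1702 genes were higher and 1383 lower and 3 of the 10 fell, the call of Opa1 ending (adjusted p = 0.0762). The difference in the share of mtDNA protein counts stayed between -2.89 and -1.51 percentage points with 1 library left out. The cause of these changes was not tested. With 3 mice a group, and with as few as 166 counts a library for Ppargc1b, counting error and the spread between mice were not separated.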
